A study of Mus musculus with 78 samples.

Results

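The regional identity of the large intestine was read from the comparison of cecum with colon in 8-week mice on a regular light cycle. It rested on 9 of the 78 libraries of the series, 5 of cecum and 4 of colon, and on 13915 of the 20673 genes of the deposited table. Genes below an average of 0.5 FPKM across the 9 libraries were left out. FPKM counts a gene's fragments per unit of transcript length and of sequenced reads, so it is a level that can be compared between genes. No measured value chose the libraries. The animals were C57BL/6 mice of 8 weeks by their labels, kept under CON, a daily schedule with 12 h lit and 12 h dark, with irradiated food and sterile water freely available. No transgene, deletion or drug is named for any group. For comparison, 18-month CON mice gave 4 cecum and 5 colon libraries. Mice labelled 8-week CRD gave 5 and 5, after circadian rhythm disruption by light phases inverted every 3 days, then 48 h phases, then constant light. The part of the cecum or colon that was taken, the hour of collection and the sex are not given in the sources used here. Since the labels do not say that replicates are separate animals, p-values measure only the spread between these samples.

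The cecum is a blind pouch at the junction of the small and large intestine in which microbes ferment plant fibre, and the colon is the tube after it that takes up water and salt and forms the stool. In the mouse the distal colon carries a firmly attached mucus layer made by many goblet cells, while the cecum holds lymphoid follicles in its wall. Position along the gut is laid down in the embryo by Hox genes, whose order in each of the Hoxa to Hoxd clusters matches the order of the body regions in which they act, and parts of that pattern persist in the adult wall.

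Cecum and colon were far apart in these libraries. The limma test on log2(FPKM + 1) called 2470 genes at an adjusted p under 0.05, which is 17.8% of those tested. Of these, 1084 were higher in cecum (7.79% of the genes tested) and 1386 were lower in cecum (9.96%). These shares are the background for every count of called list members in 8-week CON below. A difference of more than 1 on the log2 scale was held by 307 of the higher and 455 of the lower genes. The median difference over all genes tested was 0.03. The first principal component held 50.4% of the variance and had all cecum libraries on one side and all colon libraries on the other. Without colon replicate 3 the test called 671 genes higher in cecum. Differences below are cecum minus colon on the log2(FPKM + 1) scale, with the standard error (SE) of the fit, and this scale understates the change of genes at low levels. Values of single libraries are in FPKM in the order of replicates 1 to 5 in cecum and 2 to 5 in colon.

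Several libraries carried features of their own. The sum of FPKM over all genes was 553697 to 583568 in cecum and 525931 to 590745 in colon, and the read depth behind these values is unknown. Colon replicate 2 held the most adipocyte RNA, with a summed level of the 15 adipocyte markers of 438 FPKM, where the other 8 libraries lay between 115 and 173. It also lay nearest to cecum in many regional genes, as given below for the Hox genes and Car1. Colon replicate 4 held 939 FPKM of small intestine and Paneth cell markers other than Mptx1, against at most 369.9 in any other library. Colon replicate 5 had 107 FPKM of pancreatic acinar markers other than Clps and Spink1, with 69.5 or less elsewhere. Cecum replicate 5 had 44.2 FPKM of B cell markers, within the colon range of 40.0 to 94.2, while the other cecum libraries had 169 to 726. Their part in the results was tested only by leaving these libraries out. Epcam, an adhesion protein of all gut epithelium, was at 559, 810.3, 715, 790.4 and 719 FPKM in cecum, against 795, 589, 542 and 749 FPKM in colon, and the 14 squamous markers of the anal and forestomach lining summed to 2.18 to 4.93 FPKM in cecum and 4.01 to 5.1 FPKM in colon.

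**Figure D1:**
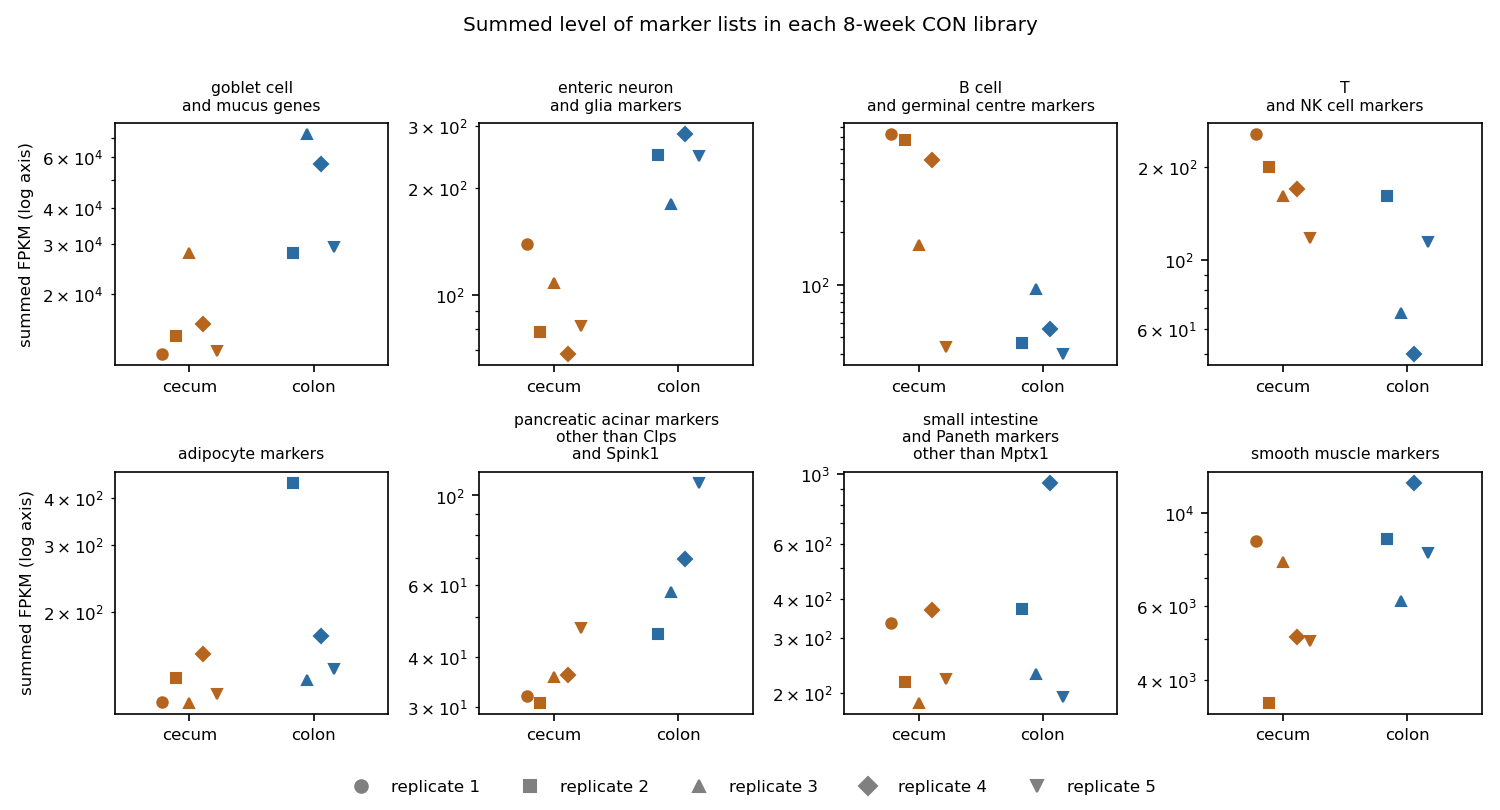
Summed FPKM (log axis) of 8 marker lists in each 8-week CON library, cecum left and colon right, with the marker shape giving the replicate number. Colon replicate 2 stands highest for adipocyte markers at 438 FPKM, colon replicate 4 for small intestine markers at 939 FPKM, and cecum replicate 5 lies at 44.2 FPKM of B cell markers.

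The largest rise in cecum was an intracellular transporter and the largest fall a secreted lectin-like protein. Slc37a2, which exchanges sugar phosphate for phosphate across the membrane of the endoplasmic reticulum (chromosome 9, 37227585 to 37255738, GRCm38), stood at 147, 207, 225, 316 and 355 FPKM in cecum, against 0.41, 0.99, 0.47 and 1.46 FPKM in colon. Every cecum library was far above every colon library, for a log2 difference of 7.07 ± 0.26 with adjusted p = 1.15e-07. At the other end was Mptx1, a mucosal pentraxin of the gut epithelium (chromosome 1, 174330518 to 174332873, GRCm38), at 1.74, 4.52, 146, 4.79 and 1.7 FPKM in cecum, against 722, 29367, 18770 and 931 FPKM in colon. Cecum replicate 3 was well above the other cecum libraries, and colon replicates 3 and 4 were far above the other colon libraries. No cecum library reached a colon library, for a log2 difference of -9.08 ± 1.41 with adjusted p = 0.00166. The plot of leading genes shows these and 10 others.

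**Figure D2:**
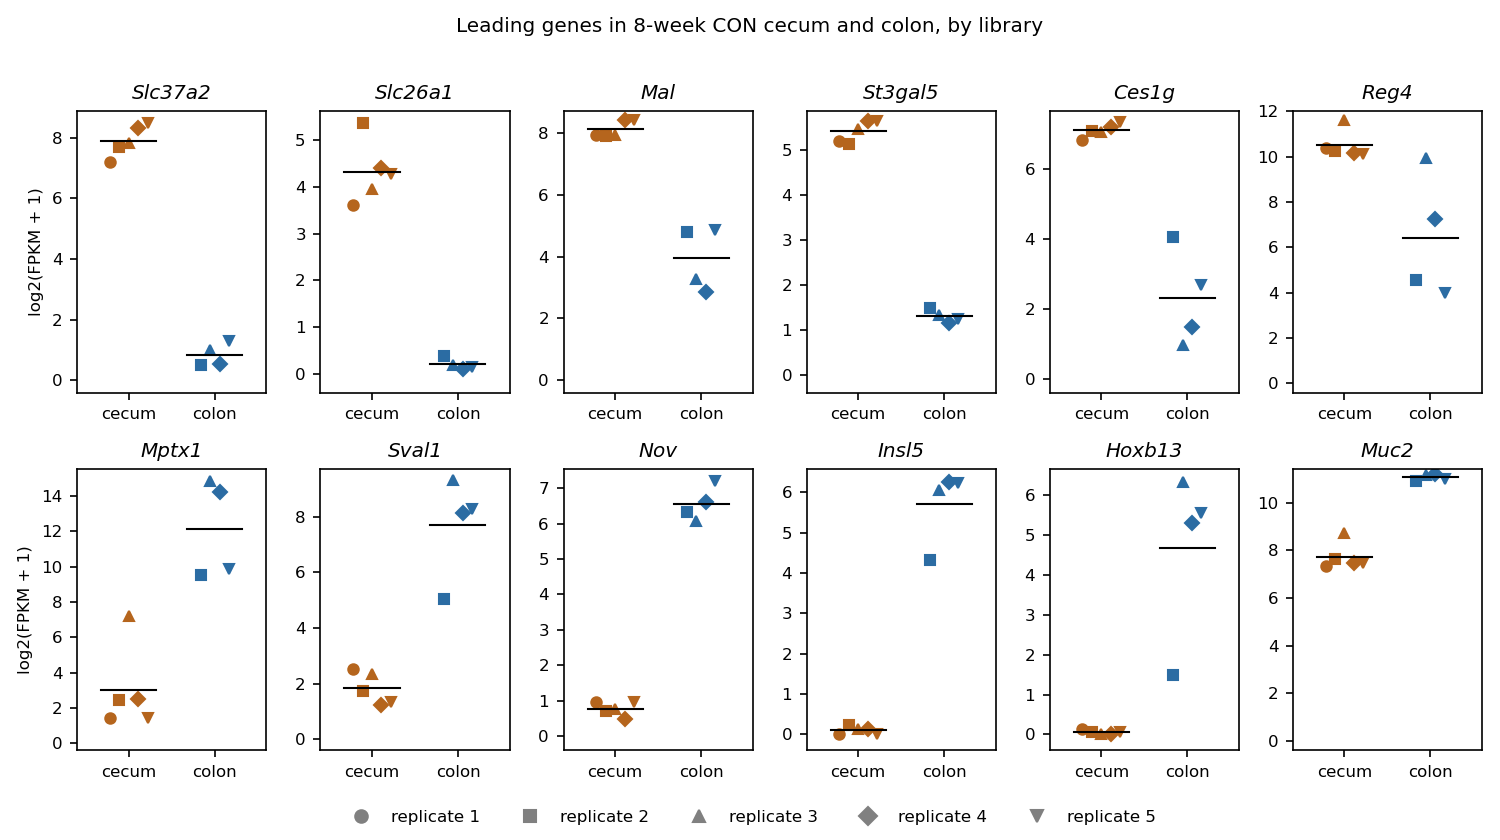
Level of 12 genes as log2(FPKM + 1) in each library, cecum left (5 points) and colon right (4 points), with the group mean as a bar. Slc37a2, Slc26a1, Mal, St3gal5, Ces1g and Reg4 (top row) are higher in every cecum library, and Mptx1, Sval1, Nov, Insl5, Hoxb13 and Muc2 (bottom row) are higher in every colon library, with colon replicate 2 the lowest of its group for Mptx1, Sval1, Insl5, Hoxb13 and Muc2.

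To show the DNA in front of genes that mark the 2 regions, the 250 bases before the RefSeq start are printed for 4 genes, taken from the RefSeq promoters of GRCm38.p6: Slc37a2 and Mptx1 at the ends of the range, Hoxb8 from the position genes and Muc2 from the mucus genes. Capitals mark TTTAT on either strand (ATAAA as read here), the core that CDX and posterior HOX proteins bind and that also lies within the TATA box TATAAA.
Slc37a2 (chr9:37255739-37255988, - strand): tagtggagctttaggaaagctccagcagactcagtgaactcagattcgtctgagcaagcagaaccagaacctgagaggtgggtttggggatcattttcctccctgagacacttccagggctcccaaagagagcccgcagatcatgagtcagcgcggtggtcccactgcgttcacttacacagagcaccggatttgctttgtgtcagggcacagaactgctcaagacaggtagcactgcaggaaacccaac
Hoxb8 (chr11:96281655-96281904, + strand): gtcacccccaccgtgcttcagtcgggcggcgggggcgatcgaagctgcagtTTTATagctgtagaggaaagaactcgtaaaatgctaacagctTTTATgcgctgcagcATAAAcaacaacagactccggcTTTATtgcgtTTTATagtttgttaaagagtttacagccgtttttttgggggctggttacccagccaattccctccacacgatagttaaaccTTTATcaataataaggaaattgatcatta
Muc2 (chr7:141690090-141690339, + strand): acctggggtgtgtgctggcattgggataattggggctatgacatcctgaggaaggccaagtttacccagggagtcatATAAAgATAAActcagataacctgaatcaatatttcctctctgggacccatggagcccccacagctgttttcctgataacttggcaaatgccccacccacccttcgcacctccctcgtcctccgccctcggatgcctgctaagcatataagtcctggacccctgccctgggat
Mptx1 (chr1:174330268-174330517, + strand): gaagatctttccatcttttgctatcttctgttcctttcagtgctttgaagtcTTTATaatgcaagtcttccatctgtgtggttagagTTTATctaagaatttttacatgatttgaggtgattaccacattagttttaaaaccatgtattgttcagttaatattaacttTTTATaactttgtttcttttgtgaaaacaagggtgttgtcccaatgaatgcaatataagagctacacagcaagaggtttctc
The windows held 0, 6, 2 and 3 matches in that order, of which 0, 2, 1 and 2 were part of a TATAAA. At least 1 match was found in 37.3% of the 32851 promoter windows of this length. A match describes the letters and shows no binding.

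The Hox genes divided by their place in the cluster. Of 38 in the table, 29 passed the filter on low values, 14 were called higher in cecum and 3 lower, beside the 7.79% and 9.96% of all genes. Their median difference was 0.74, where that of all genes was 0.03. It was 0.44 without cecum replicate 1, 0.45 without cecum replicate 3, 0.47 without cecum replicate 5 and 0.46 in one fit over 8 gut groups. The rises lay at paralog numbers 4 to 10 of all 4 clusters. Hoxb6 (chromosome 11, 96292476 to 96301569, GRCm38) was at 60.4, 44.5, 66.3, 42.5 and 68.2 FPKM in cecum, against 22.8, 1.97, 4.11 and 6.62 FPKM in colon. Colon replicate 2 was the highest of the colon libraries and still below every cecum library, for a log2 difference of 2.96 ± 0.48 with adjusted p = 0.00213. Its neighbours Hoxb7 and Hoxb8 differed by 2.17 ± 0.45 (adjusted p = 0.00791) and by 2.62 ± 0.47 (adjusted p = 0.00393), and Hoxb4 by 1.61 ± 0.25 (adjusted p = 0.00161). Hoxc6 stood at 9.07, 1.21, 5.14, 2.48 and 2.69 FPKM in cecum, against 0.07, 0.16, 0.13 and 0.03 FPKM in colon, without overlap, for a log2 difference of 2.02 ± 0.36 with adjusted p = 0.00357. Hoxc10, further along the same cluster, was at 2.67, 0.87, 1.71, 0.97 and 1.38 FPKM in cecum, against 0.35, 0, 0 and 0.06 FPKM in colon, for a log2 difference of 1.16 ± 0.20 with adjusted p = 0.00286.

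The genes lower in cecum lay at paralog numbers 11 and 13, the posterior end. Hoxb13 (chromosome 11, 96194316 to 96197447, GRCm38), which in the mouse acts in the tail bud and hindgut, was at 0.09, 0.04, 0, 0 and 0.05 FPKM in cecum, against 1.82, 79.4, 38.4 and 46.1 FPKM in colon. It was at or near 0 in every cecum library, and colon replicate 2 was far below the other colon libraries. The difference was -4.62 ± 0.78 (adjusted p = 0.00265), and -5.68 ± 0.21 without colon replicate 2. Hoxa13, needed for the hindgut and its outlet, stood at 2.14, 2.12, 1.68, 1.12 and 0.70 FPKM in cecum, against 8.16, 8.02, 7.98 and 15.3 FPKM in colon, for a log2 difference of -2.08 ± 0.24 with adjusted p = 0.000338. Hoxa11 stood at 5.34, 2.32, 3.48, 1.68 and 2.81 FPKM in cecum, against 10.1, 11.8, 17.7 and 18.5 FPKM in colon, for a log2 difference of -1.93 ± 0.26 with adjusted p = 0.00073. Neither overlapped between the groups. Hoxd13 did not pass the filter and was at 0, 0, 0, 0 and 0.03 FPKM in cecum, against 0.02, 3.19, 0.88 and 0.24 FPKM in colon. Without colon replicate 2 the list had 13 members called higher in cecum and 4 lower, and Hoxb6 differed by 3.53 ± 0.28. With colon replicates 2 and 4 both left out, 9 members were called higher and 3 lower.

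**Figure D3:**
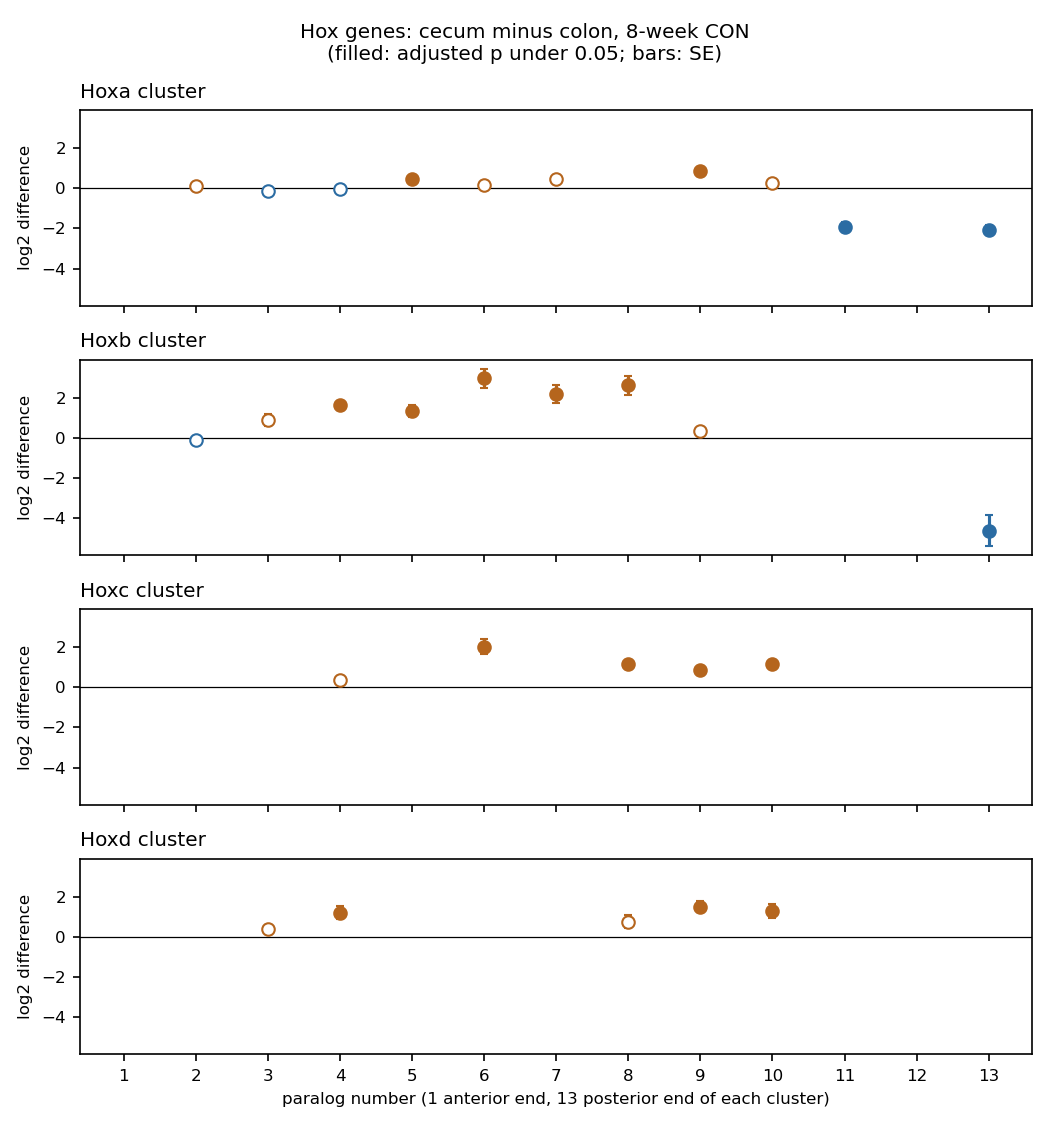
Cecum minus colon difference on the log2(FPKM + 1) scale of the 29 tested Hox genes, by cluster and paralog number, with SE bars and filled symbols for an adjusted p under 0.05. Filled symbols above 0 lie at numbers 4 to 10, with Hoxb6 at 2.96, and those below 0 at 11 and 13, with Hoxb13 at -4.62.

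Signals and factors of the gut wall differed in both directions. Of 40 tested genes of mesenchymal position and signalling, 5 were higher in cecum and 11 lower, beside the 7.79% and 9.96% of all genes. The median was -0.41. The count of lower genes was 18 without cecum replicate 1, 19 with the replicate number as a block, and 7 without cecum replicate 2 or 4 or colon replicate 4 or 5, and the higher count was 3 without cecum replicate 4 or colon replicate 3 or 4. Fgfr2, the receptor of FGF10, which is needed for the mouse cecum to bud, was at 39, 25.2, 46.3, 40.8 and 42.4 FPKM in cecum, against 8.19, 7.98, 9.52 and 17.3 FPKM in colon, for a log2 difference of 1.80 ± 0.23 with adjusted p = 0.000602. Ihh, the hedgehog ligand of differentiated gut epithelium, was at 64.5, 78, 91.9, 121 and 103 FPKM in cecum, against 22.6, 20.1, 29.8 and 37.4 FPKM in colon, for a log2 difference of 1.71 ± 0.21 with adjusted p = 0.000486. Both were higher in every cecum library than in any colon library. Nkx3-2, a homeodomain factor of the mesenchyme of the foregut in the embryo, was at 0, 0, 0.04, 0.04 and 0.05 FPKM in cecum, against 2.82, 1.28, 3.3 and 3.44 FPKM in colon, for a log2 difference of -1.81 ± 0.18 with adjusted p = 0.000166. Grem1, a BMP antagonist of cells beneath the crypts, was at 5.56, 2.8, 2.81, 2.54 and 2.6 FPKM in cecum, against 16.6, 14.2, 14.8 and 18.9 FPKM in colon, for a log2 difference of -2.04 ± 0.19 with adjusted p = 9.52e-05. Sfrp1, a secreted WNT antagonist, differed by -2.0 ± 0.22 (adjusted p = 0.000294). These 3 were lower in every cecum library.

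Of 30 tested transcription factors of intestinal identity, 5 were called higher in cecum and 3 lower. Over all genes 7.79% were called higher and 9.96% lower, so the lower share was near that of all genes. The lower count was 3 or 4 when any 1 library was left out. The higher count was 1 without cecum replicate 3, 4 or 5 or colon replicate 3 or 4 and 2 without colon replicate 5. It was also 1 with either rescaling of the libraries, and 2 with no filter or no trend. With a mean of at least 2 FPKM or a robust prior it was 3, and with the replicate number as a block 7. Cdx1 and Cdx2 are the homeodomain factors that set intestinal over gastric fate. Cdx1 was at 162, 148, 189.5, 209 and 191 FPKM in cecum, against 179, 180.4, 201 and 163 FPKM in colon, which overlap widely, with a difference of -0.01 ± 0.12 (adjusted p = 0.951). Cdx2 was at 132, 77, 166, 183 and 169.6 FPKM in cecum, against 82.2, 68.4, 85.1 and 94.8 FPKM in colon, where cecum replicate 2 lay within the colon range. Its difference of 0.76 ± 0.23 (adjusted p = 0.0448) was called without cecum replicate 2 and missed it in the other 8 fits that left out 1 library, with adjusted p of up to 0.109.

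Goblet cell and mucus genes were lower in cecum as a group. Of 27 tested, 19 were called lower in cecum and 0 higher, with a median difference of -1.77. Leaving out any 1 library gave 15 to 19 lower and 0 higher. Their summed level was 12339 to 27752 FPKM in cecum and 27902 to 72302 FPKM in colon, and cecum replicate 3 was the highest of its group. In whole tissue, fewer cells of a type and less RNA per cell cannot be told apart. Muc2, the gel-forming mucin of gut mucus (chromosome 7, 141690340 to 141754693, GRCm38), was at 162, 198, 426, 178 and 177 FPKM in cecum, against 1951, 2310.3, 2392 and 2067 FPKM in colon. Cecum replicate 3 was highest of its group and still far below every colon library, for a log2 difference of -3.35 ± 0.25 with adjusted p = 2.63e-05. Agr2, the protein disulfide isomerase that mucin folding needs, was at 618, 624, 883, 406 and 530.2 FPKM in cecum, against 4067, 4741, 5188 and 4049 FPKM in colon, for a log2 difference of -2.92 ± 0.21 with adjusted p = 2.13e-05. The transcription factors of the lineage moved the same way. Atoh1, which commits cells to the secretory fate, was at 15.6, 12.2, 22.3, 11.6 and 17.2 FPKM in cecum, against 36.5, 33.9, 29.5 and 34.9 FPKM in colon, for a log2 difference of -1.08 ± 0.17 with adjusted p = 0.00201. Spdef, which acts in goblet cell maturation, was at 13, 17.2, 20.5, 13.4 and 12.2 FPKM in cecum, against 74.1, 84, 109 and 62.6 FPKM in colon, for a log2 difference of -2.36 ± 0.18 with adjusted p = 3.2e-05. Neither overlapped between the groups. Foxa3 and Creb3l1, transcription factors of secretory cells, differed by -1.38 ± 0.18 (adjusted p = 0.00073) and by -2.15 ± 0.13 (adjusted p = 9.67e-06).

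Of other secreted products of these cells, Klk1, Ccl6, Clca1, Zg16 and Sval1 were called lower in cecum, Ang4 and Itln1 were called lower with overlap between the groups, and Tff3 was not called. Klk1, a kallikrein protease, was at 295, 389.9, 536, 263 and 389 FPKM in cecum, against 2036, 1951, 1862 and 1852 FPKM in colon, for a log2 difference of -2.40 ± 0.19 with adjusted p = 3.32e-05. Ccl6, a chemokine, differed by -2.59 ± 0.17 (adjusted p = 1.4e-05). Clca1, a metalloprotease of the mucus, was at 283, 570.0, 2534, 765 and 268 FPKM in cecum, against 2661, 13100.1, 8473 and 2745 FPKM in colon. Cecum replicate 3 came close to colon replicates 2 and 5, and colon replicates 3 and 4 were the highest, for a log2 difference of -3.13 ± 0.69 with adjusted p = 0.0111. Zg16, a lectin that binds bacteria, was at 2101, 2510.3, 2924, 2841 and 2236 FPKM in cecum, against 3638, 7378, 4215 and 5838 FPKM in colon, a smaller difference of -1.02 ± 0.23 (adjusted p = 0.0125). Tff3, a trefoil peptide of goblet cells, was at 1762, 1931, 2547, 2055 and 1733 FPKM in cecum, against 1275, 2102, 1510.2 and 1454 FPKM in colon, which overlap, with a difference of 0.35 ± 0.18 (adjusted p = 0.217). Ang4, an antimicrobial ribonuclease, was at 140.1, 363, 3175, 561 and 25.5 FPKM in cecum, against 2291, 13791, 9116 and 1353 FPKM in colon. Cecum replicate 3 exceeded colon replicates 2 and 5, so the groups overlapped. Its difference was -3.89 ± 1.19 (adjusted p = 0.0466), and the adjusted p reached 0.115 when single libraries were left out, with the call kept only without cecum replicate 3. Itln1, an intestinal lectin of microbial sugars, was at 0.30, 0.81, 19.8, 5.39 and 0.80 FPKM in cecum, against 33.8, 135, 141 and 6.24 FPKM in colon, with overlap, for a log2 difference of -3.73 ± 1.0 with adjusted p = 0.0275. It was not called without cecum replicate 1 or 2 or colon replicate 3 or 4, with adjusted p of up to 0.0786. Sval1, a secreted protein related to seminal vesicle antigen, was at 4.8, 2.32, 4.07, 1.33 and 1.52 FPKM in cecum, against 32.2, 632, 276 and 305 FPKM in colon, for a log2 difference of -5.85 ± 0.70 with adjusted p = 0.000411 and no overlap.

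The enzymes that build mucin sugars also differed. Of 33 tested, 3 were higher in cecum and 18 lower, beside the 7.79% and 9.96% of all genes. The median was -0.77, and leaving out 1 library gave 15 to 18 lower. B3gnt7, which extends chains with N-acetylglucosamine, was at 2.55, 3.07, 1.91, 0.97 and 1.48 FPKM in cecum, against 25.4, 79.8, 52.6 and 67.7 FPKM in colon, for a log2 difference of -4.19 ± 0.32 with adjusted p = 2.6e-05. The sialyltransferases St3gal4 and St3gal6 were lower in cecum. St3gal6 was at 5.81, 6.08, 10.2, 3.76 and 2.54 FPKM in cecum, against 42.8, 164, 132 and 84.4 FPKM in colon, for a log2 difference of -3.94 ± 0.40 with adjusted p = 0.000176. St3gal4 was at 9.61, 5.46, 64, 18.4 and 14 FPKM in cecum, against 72.8, 315, 232 and 234 FPKM in colon, for a log2 difference of -3.50 ± 0.61 with adjusted p = 0.00338, and its groups came closest at cecum replicate 3 and colon replicate 2. Abo, the blood group glycosyltransferase, was at 0.41, 0.60, 0.21, 0.27 and 0.16 FPKM in cecum, against 3.75, 4.79, 4.9 and 4.22 FPKM in colon, for a log2 difference of -2.03 ± 0.13 with adjusted p = 1.15e-05. Galnt5, which starts O-linked chains, and Chst4, which adds sulfate to N-acetylglucosamine, differed by -1.87 ± 0.16 (adjusted p = 4.78e-05) and by -1.49 ± 0.18 (adjusted p = 0.000398).

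The opposite direction was held by B4galnt2, which makes the Sd(a) antigen of the mouse gut, at 304, 288, 412, 426 and 419 FPKM in cecum, against 212, 149, 134 and 169.6 FPKM in colon, for a log2 difference of 1.15 ± 0.17 with adjusted p = 0.00135. Sulfate transfer genes with the same direction were Gal3st2c and Gal3st2, which add sulfate to galactose, and they are close relatives whose reads may not be told apart. Gal3st2c was at 17.6, 17.8, 16.9, 18.2 and 36 FPKM in cecum, against 0.16, 0.16, 0.18 and 0.58 FPKM in colon, for a log2 difference of 4.08 ± 0.22 with adjusted p = 3.12e-06. Gal3st2 differed by 0.90 ± 0.19 (adjusted p = 0.00845), and it was not called in one fit over 8 gut groups (adjusted p = 0.096) or with colon replicates 2 and 4 left out (adjusted p = 0.0806). Papss2, which makes the sulfate donor PAPS, was at 443, 605, 609, 691 and 745 FPKM in cecum, against 102, 58.2, 60.9 and 99.1 FPKM in colon, for a log2 difference of 2.96 ± 0.21 with adjusted p = 2.13e-05. It was named after its values had been seen. Slc26a1, an exchanger of sulfate and other anions, was at 11.3, 39.9, 14.5, 20.3 and 18.5 FPKM in cecum, against 0.30, 0.14, 0.08 and 0.11 FPKM in colon, for a log2 difference of 4.12 ± 0.29 with adjusted p = 2.13e-05. St3gal5, which makes the ganglioside GM3 and so sialylates lipid rather than mucin, was at 35.9, 34.1, 42.8, 48.6 and 48.7 FPKM in cecum, against 1.8, 1.49, 1.21 and 1.34 FPKM in colon, for a log2 difference of 4.12 ± 0.14 with adjusted p = 8.38e-08. All 6 were higher in every cecum library than in any colon library.

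Ion and water transport genes were called in both directions. Of 47 tested, 8 were higher in cecum and 12 lower, beside the 7.79% and 9.96% of all genes. The median was -0.01. Car1, a carbonic anhydrase abundant in the large intestine, was at 15027, 21452, 16099, 24726 and 26993 FPKM in cecum, against 10150.3, 1314, 1465 and 3100.4 FPKM in colon. Colon replicate 2 lay well above the other colon libraries and below every cecum library, for a log2 difference of 2.86 ± 0.54 with adjusted p = 0.00491, and 3.48 ± 0.36 without it. Car2 and Car12, which also hydrate carbon dioxide, differed by 0.88 ± 0.12 (adjusted p = 0.000846) and by 1.90 ± 0.26 (adjusted p = 0.000884). Slc20a1, a sodium phosphate cotransporter, was at 94.4, 78.1, 125, 176 and 230.4 FPKM in cecum, against 17.4, 40.8, 29.4 and 33.2 FPKM in colon, for a log2 difference of 2.14 ± 0.32 with adjusted p = 0.00152. Slc34a2, another phosphate transporter, ran the other way, at 0.01, 0.03, 0.03, 0.94 and 1.3 FPKM in cecum, against 2.17, 5.03, 3.78 and 9.6 FPKM in colon, for a log2 difference of -2.03 ± 0.36 with adjusted p = 0.00381. None of the 5 overlapped between the groups.

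Genes of salt and water uptake were among those lower in cecum. Aqp4, a water channel, was at 22.7, 5.96, 20.6, 4.61 and 23.4 FPKM in cecum, against 74.2, 203, 167 and 209.7 FPKM in colon, for a log2 difference of -3.47 ± 0.50 with adjusted p = 0.00118. Slc9a3, the apical sodium proton exchanger NHE3, was at 20.0, 21.8, 22.7, 30.4 and 44 FPKM in cecum, against 68.8, 131, 58.4 and 139 FPKM in colon, for a log2 difference of -1.76 ± 0.30 with adjusted p = 0.00283. Atp12a, the colonic proton potassium pump, was at 0, 0.04, 0.03, 0.03 and 0 FPKM in cecum, against 3.12, 62.1, 2.71 and 12.2 FPKM in colon, so it was almost undetected in cecum and varied widely in colon, for a log2 difference of -3.38 ± 0.68 with adjusted p = 0.00723. The junction protein Cldn8, which seals the distal colon, differed by -2.22 ± 0.32 (adjusted p = 0.00123). On the secretory side, Slc12a2, the basolateral cotransporter of sodium, potassium and chloride, differed by -1.11 ± 0.22 (adjusted p = 0.00717), and the chloride channel Ano1, which also marks the pacemaker cells of the muscle, by -2.49 ± 0.28 (adjusted p = 0.00028).

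Of 60 tested genes of nutrient transport and the brush border, 5 were higher in cecum and 5 lower. These shares were near the 7.79% and 9.96% of all genes. The list had 3 higher without cecum replicate 4, and 3 higher and 3 lower without colon replicate 5. Vil1, which bundles the actin of microvilli, was at 191, 278, 234, 308 and 287 FPKM in cecum, against 261, 213, 197 and 229.5 FPKM in colon, and Fabp2, a fatty acid carrier of enterocytes, at 535, 696, 736, 998 and 857 FPKM in cecum, against 671, 519, 753 and 781 FPKM in colon, with overlap in both. Slc16a1, a transporter of short-chain fatty acids such as butyrate, was at 142, 162, 188, 218 and 219 FPKM in cecum, against 69.2, 63.9, 69.8 and 95.5 FPKM in colon, for a log2 difference of 1.30 ± 0.16 with adjusted p = 0.000475 and no overlap. Slc40a1, the iron exporter ferroportin, was at 9.21, 4.04, 6.57, 6.27 and 6.19 FPKM in cecum, against 17.6, 17.3, 12.3 and 25.9 FPKM in colon, for a log2 difference of -1.36 ± 0.23 with adjusted p = 0.00248. Bile acid transporters set colon replicate 2 apart. Slc51a, a subunit of the basolateral exporter of bile acids, was at 28.9, 36.9, 49.5, 78.1 and 66.8 FPKM in cecum, against 38, 0.85, 7.73 and 2.55 FPKM in colon, with colon replicate 2 in the cecum range. It differed by 2.86 ± 0.72 (adjusted p = 0.0209), by 3.69 ± 0.47 without colon replicate 2, and was not called without cecum replicate 4 or colon replicate 5, with adjusted p of up to 0.0651. Slc10a2, the apical bile acid importer of the ileum, was at 11.8, 17.7, 13.3, 20.1 and 23.1 FPKM in cecum, against 29.9, 1.45, 1.3 and 2.44 FPKM in colon, where colon replicate 2 exceeded every cecum library, for a log2 difference of 1.84 ± 0.66 with adjusted p = 0.0789. Without colon replicate 2 it was called, at 2.72 ± 0.23 with adjusted p = 0.000102. Carriers of amino acids and peptides were among the lower members. Slc3a1, a subunit of the cystine carrier, was at 5.3, 5.49, 2.72, 6.3 and 7.48 FPKM in cecum, against 21.9, 18.2, 14.8 and 24.6 FPKM in colon, for a log2 difference of -1.72 ± 0.23 with adjusted p = 0.000738 and no overlap. Slc1a1, a glutamate carrier, was at 1.23, 0.76, 4.11, 1.03 and 1.07 FPKM in cecum, against 3.87, 17.9, 12.6 and 4.85 FPKM in colon, with cecum replicate 3 above colon replicate 2, for a log2 difference of -1.93 ± 0.43 with adjusted p = 0.0116. Slc15a1, the importer of small peptides, was at 0.46, 0.73, 1.18, 1.35 and 2.87 FPKM in cecum, against 1.48, 13.8, 12.7 and 11.5 FPKM in colon, with cecum replicate 5 above colon replicate 2, for a log2 difference of -2.03 ± 0.50 with adjusted p = 0.0187. It was not called without colon replicate 3, 4 or 5, with adjusted p of up to 0.058.

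More enzymes of xenobiotic metabolism were called higher in cecum than lower. Of 65 tested, 31 were higher and 5 lower, with a median of 0.64, and 26 to 35 were higher when single libraries were left out. Ces1g, a carboxylesterase, was at 111, 134, 131, 145 and 159 FPKM in cecum, against 15.7, 0.95, 1.75 and 5.4 FPKM in colon. Colon replicate 2 was the highest of the colon libraries, for a log2 difference of 4.80 ± 0.50 with adjusted p = 0.000207. The cytochrome P450 genes Cyp2d26 and Cyp2c66 differed by 2.12 ± 0.21 (adjusted p = 0.000141) and by 2.05 ± 0.23 (adjusted p = 0.000313), while Cyp2c68 ran the other way, at 1.06, 0.81, 2.03, 0.97 and 1.32 FPKM in cecum, against 3.75, 17, 11.6 and 18.4 FPKM in colon, for a log2 difference of -2.45 ± 0.37 with adjusted p = 0.00139. Members of the Cyp2c, Cyp2d, Ces1 and Akr1c families have near-identical relatives, so their single values are uncertain. Nqo1, a quinone reductase induced by NRF2, was at 61.7, 59, 57.5, 57.5 and 63.8 FPKM in cecum, against 26.6, 13.5, 18.1 and 23.4 FPKM in colon, for a log2 difference of 1.55 ± 0.16 with adjusted p = 0.000221. Akr1c12, an aldo-keto reductase, differed by 1.20 ± 0.11 (adjusted p = 9.46e-05). Adh1, the alcohol dehydrogenase that also oxidises retinol, was lower in cecum, at 55.6, 40.6, 44.4, 49.9 and 32.6 FPKM in cecum, against 64.3, 161, 183 and 172 FPKM in colon, for a log2 difference of -1.59 ± 0.29 with adjusted p = 0.00384. No overlap was seen in any of these.

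Fatty acid oxidation and ketogenesis leaned the same way. Of 34 tested, 15 were higher in cecum and 1 lower, with a median of 0.56, and 14 to 20 were higher when single libraries were left out. Acaa1b, a thiolase of peroxisomes, was at 7.71, 7.37, 11.4, 16.5 and 15.1 FPKM in cecum, against 1.8, 0.62, 0.81 and 0.55 FPKM in colon, for a log2 difference of 2.67 ± 0.26 with adjusted p = 0.000139. Slc27a2, which activates long-chain fatty acids, differed by 1.93 ± 0.16 (adjusted p = 4.78e-05). The lower member was Acsm3, a ligase of medium-chain fatty acids, at 5.52, 4.39, 5.72, 2.34 and 3.53 FPKM in cecum, against 33.1, 50.3, 40.1 and 34.7 FPKM in colon, for a log2 difference of -2.96 ± 0.21 with adjusted p = 2.13e-05. These metabolic lists and the goblet list are set side by side in the plot of gene lists.

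**Figure D4:**
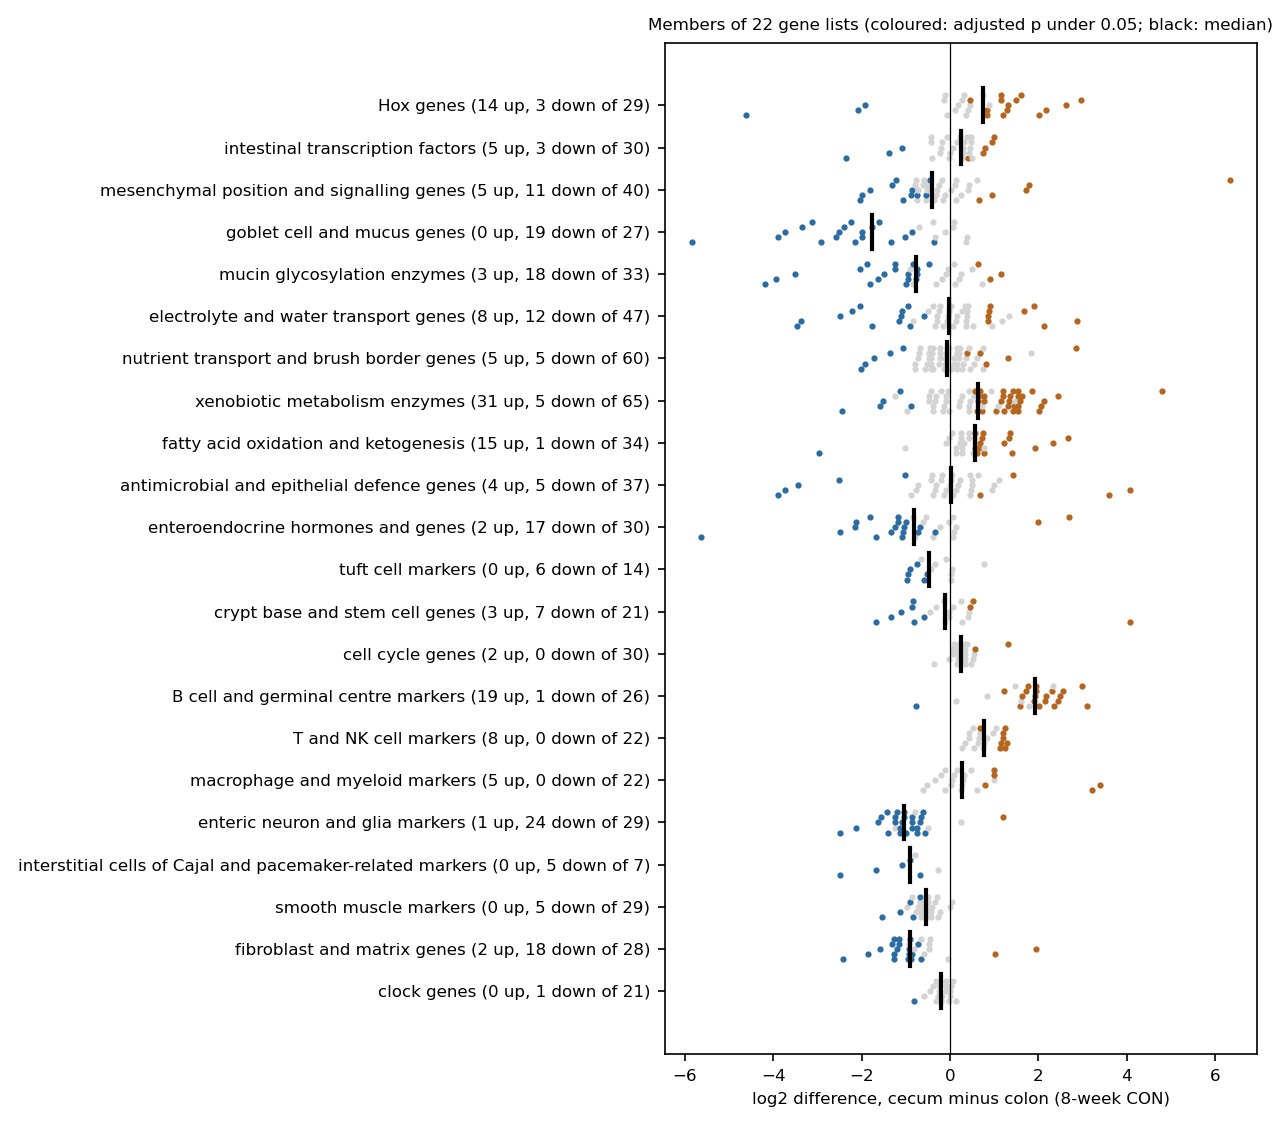
Cecum minus colon difference on the log2(FPKM + 1) scale of each tested member of 22 gene lists, coloured where the adjusted p was under 0.05, with the list's median as a black bar. The goblet list sits left of 0 with a median of -1.77, the neuron and glia list at -1.04, the xenobiotic list right of 0 at 0.64, and the B cell list at 1.93.

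Hormone genes of the enteroendocrine cells, the scattered endocrine cells of the epithelium, were mostly lower in cecum. Of 30 tested, 17 were lower and 2 higher, with a median of -0.82, and 15 to 19 were lower when single libraries were left out. Insl5, a relaxin-family hormone of L cells in the distal colon (chromosome 4, 103017872 to 103026842, GRCm38), was at 0, 0.17, 0.09, 0.09 and 0 FPKM in cecum, against 19.1, 65.8, 75.8 and 74.1 FPKM in colon. Cecum was at or near 0, and colon replicate 2 was the lowest colon library. The difference was -5.63 ± 0.35 (adjusted p = 9.4e-06), and -6.09 ± 0.12 without colon replicate 2. Sst, the inhibitory peptide somatostatin of D cells and neurons, was at 15.8, 12.6, 23.2, 12.5 and 8.65 FPKM in cecum, against 90.5, 60.9, 75.9 and 42.5 FPKM in colon, for a log2 difference of -2.15 ± 0.27 with adjusted p = 0.000524. The other L cell hormones had smaller differences. Pyy, which slows transit and appetite, was at 54.4, 41.5, 52.1, 57.8 and 46.7 FPKM in cecum, against 74.8, 105, 103 and 131 FPKM in colon, and Gcg, the source of GLP-1, at 29.6, 21.2, 19.3, 25.2 and 31.8 FPKM in cecum, against 46.5, 40.4, 59.5 and 74.6 FPKM in colon. Their differences were -1.0 ± 0.16 (adjusted p = 0.00175) for Pyy and -1.07 ± 0.20 (adjusted p = 0.00415) for Gcg, without overlap. Cck, the hormone cholecystokinin, and Pcsk1, a protease that matures hormones, differed by -1.17 ± 0.20 (adjusted p = 0.00269) and by -1.34 ± 0.16 (adjusted p = 0.000398). Ffar2, a receptor of short-chain fatty acids on L cells and leukocytes, differed by -1.68 ± 0.17 (adjusted p = 0.000166).

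The 2 hormones called higher in cecum were Sct and Nts. Sct, the hormone secretin, was at 135, 114, 203, 148 and 126 FPKM in cecum, against 37.7, 10.7, 16 and 29.4 FPKM in colon, for a log2 difference of 2.70 ± 0.32 with adjusted p = 0.00038 and no overlap. Nts, the peptide neurotensin, was at 24.5, 23.4, 30.5, 25.3 and 34.7 FPKM in cecum, against 29.7, 1.52, 2.29 and 9.24 FPKM in colon, with colon replicate 2 in the cecum range, for a log2 difference of 1.99 ± 0.60 with adjusted p = 0.044. The Nts call was lost with the replicate number as a block (adjusted p = 0.0509) and in every fit that left out 1 library except that without colon replicate 2, where the difference was 2.69 ± 0.38 and the adjusted p 0.00159. In the 8 others the adjusted p reached 0.115.

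Tuft cells, the chemosensory cells of the epithelium, had 6 of 14 tested markers lower in cecum and 0 higher. Over all genes 9.96% were lower and 7.79% higher. Without colon replicate 3 the lower count was 3. Trpm5, the cation channel of the taste-like signalling of tuft cells, was at 0.88, 1.57, 2.46, 1 and 1.07 FPKM in cecum, against 2.79, 4.23, 4 and 3.28 FPKM in colon, for a log2 difference of -0.96 ± 0.19 with adjusted p = 0.00663. Dclk1, a kinase that marks these cells, was at 3.34, 2.09, 2.3, 1.88 and 1.18 FPKM in cecum, against 5.2, 4.31, 4.96 and 4.62 FPKM in colon, for a log2 difference of -0.90 ± 0.18 with adjusted p = 0.0064. Neither gene overlapped between the groups.

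Of 37 tested antimicrobial and epithelial defence genes, 4 were called higher in cecum and 5 lower, beside the 7.79% and 9.96% of all genes. Leaving out single libraries gave 2 to 4 higher, with 2 without colon replicate 2 or 5. It gave 2 to 5 lower, with 2 without cecum replicate 1 or 2 or colon replicate 4 and 3 without cecum replicate 4 or 5 or colon replicate 2 or 3. Reg4, a lectin of crypt secretory cells in the colon, was at 1332, 1210.1, 3151, 1134 and 1121 FPKM in cecum, against 22.5, 977, 149.5 and 15 FPKM in colon. Every cecum library was higher, while colon spread widely with replicate 3 close to cecum. Its difference was 4.07 ± 1.01 (adjusted p = 0.0189), and it was not called without colon replicate 2 (adjusted p = 0.0512) or colon replicate 5 (adjusted p = 0.0531). Saa3, an acute phase apolipoprotein, was at 67.2, 34.1, 81.6, 66.5 and 91 FPKM in cecum, against 5.75, 4.37, 3.13 and 4.89 FPKM in colon, for a log2 difference of 3.59 ± 0.26 with adjusted p = 2.13e-05. Dmbt1, a secreted scavenger receptor that binds bacteria, differed by 1.42 ± 0.27 (adjusted p = 0.00564). Wfdc18, a small secreted protein with the fold of protease inhibitors, was at 0.33, 0.77, 0.89, 0.22 and 0.25 FPKM in cecum, against 13.1, 15.6, 16.9 and 14.1 FPKM in colon, for a log2 difference of -3.43 ± 0.16 with adjusted p = 1.02e-06. Pigr, which carries IgA through the epithelium, was at 595, 509, 839.8, 609.7 and 807 FPKM in cecum, against 489, 677, 582 and 595 FPKM in colon, with overlap and a difference of 0.18 ± 0.17 (adjusted p = 0.5).

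The remaining named genes of the epithelium were separated without overlap. Mal, a membrane protein of apical transport, was at 245, 238, 248, 347 and 346 FPKM in cecum, against 27.1, 8.82, 6.22 and 28 FPKM in colon, for a log2 difference of 4.18 ± 0.39 with adjusted p = 0.000104. Mpp6, a scaffold protein of cell contacts, was at 164, 203, 171, 189.6 and 273 FPKM in cecum, against 15.7, 15.8, 15.8 and 17.1 FPKM in colon, for a log2 difference of 3.53 ± 0.14 with adjusted p = 1.87e-07. Epop, a nuclear protein that binds polycomb complex PRC2 and elongin, differed by 3.61 ± 0.33 (adjusted p = 8.09e-05). Lower in cecum was Clps, whose product colipase aids pancreatic lipase, at 1.08, 0.86, 28.7, 1.07 and 2.46 FPKM in cecum, against 69, 501, 144 and 48 FPKM in colon, for a log2 difference of -5.04 ± 0.88 with adjusted p = 0.00322. Spink1, a trypsin inhibitor, was at 7.8, 3.35, 5.84, 9.55 and 12.5 FPKM in cecum, against 63.9, 355, 231 and 228 FPKM in colon, for a log2 difference of -4.51 ± 0.46 with adjusted p = 0.000177. Both are known from the acinar pancreas. The other 15 acinar markers summed to 30.8 to 47 FPKM in cecum and 45.6 to 107 FPKM in colon, with a median difference of -0.60, and their part in the values of Clps and Spink1 was not tested. Tgm3, a transglutaminase of cornified epithelium, was at 0.35, 0.16, 0.14, 0.24 and 0.21 FPKM in cecum, against 2.1, 42.3, 6.8 and 96.7 FPKM in colon, for a log2 difference of -3.88 ± 0.81 with adjusted p = 0.00871. Scgb1b3, a secretoglobin, was listed at 0 in all 5 cecum libraries and at 5.23, 21.6, 10.0 and 13.8 FPKM in colon, with adjusted p = 3.68e-05. Capn13, a calpain-type protease, was at 0.99, 1.08, 5.28, 0.87 and 1.09 FPKM in cecum, against 7.75, 137, 52.2 and 10.1 FPKM in colon, for a log2 difference of -3.53 ± 0.74 with adjusted p = 0.00896, and its groups came closest at cecum replicate 3 and colon replicate 2. Scgb1b3 and Mptx1 also have close relatives that may share reads.

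Many lymphoid genes were called higher in cecum, with a wide spread between cecum libraries. Of 26 tested B cell and germinal centre markers, 19 were called higher in cecum and 1 lower, with a median of 1.93. The count of higher members depended on single libraries. It was 5 without cecum replicate 1, 3 without cecum replicate 2 and 0 without cecum replicate 4 or colon replicate 5. It was 1 without colon replicate 2, 11 without colon replicate 3 and 3 without colon replicate 4. On the other side it was 18 without cecum replicate 3, 24 without cecum replicate 5 and 24 in one fit over 8 gut groups. It was 11 with the replicate number as a block and 0 without colon replicates 2 and 4 together. The lower member was Rgs13, a regulator of G protein signals that gut tuft cells use too, at 3.56, 4.53, 3.39, 2.9 and 1.56 FPKM in cecum, against 5.63, 6.29, 6.25 and 5.72 FPKM in colon, for a log2 difference of -0.78 ± 0.20 with adjusted p = 0.0204, and it was not called without colon replicate 4 (adjusted p = 0.0544). The median difference of the list lay between 1.67 and 2.41 when single libraries were left out. Ms4a1, the B cell surface protein CD20, was at 34.5, 44, 6.41, 23.7 and 1.72 FPKM in cecum, against 0.32, 2.55, 1.4 and 0.21 FPKM in colon, and cecum replicate 5 lay within the colon range. It differed by 2.98 ± 0.76 (adjusted p = 0.0212), and it was not called without cecum replicate 4, colon replicate 2 or colon replicate 5, with adjusted p of up to 0.0631.

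Chemokines of lymphoid follicles were called too. Ccl20, which the epithelium over follicles makes to attract cells with the receptor CCR6, was at 26.8, 29.6, 14.5, 20.3 and 7.94 FPKM in cecum, against 1.06, 0.87, 1.08 and 1.28 FPKM in colon, lowest of its group in cecum replicate 5 but above every colon library, for a log2 difference of 3.20 ± 0.31 with adjusted p = 0.000133. Ccl19, which guides cells with the receptor CCR7 into lymphoid tissue, was at 36.2, 20.0, 16.2, 19.2 and 0 FPKM in cecum, against 0.33, 0.86, 0.35 and 0 FPKM in colon, with 0 in cecum replicate 5, for a log2 difference of 3.18 ± 0.86 with adjusted p = 0.0285. Its call was kept only without cecum replicate 5 or colon replicate 3, with adjusted p of up to 0.0748 without another library. Ubd, a ubiquitin-like protein of follicle epithelium and antigen-presenting cells, differed by 2.48 ± 0.33 (adjusted p = 0.000763). Of 22 tested T and NK cell markers, 8 were higher in cecum and 0 lower, beside the 7.79% and 9.96% of all genes. The higher count was 12 without cecum replicate 5, 5 without colon replicate 4 and 3 without colon replicates 2 and 4 together. Cd3e, a chain of the T cell receptor complex, was at 9.39, 8.06, 4.38, 6.6 and 4 FPKM in cecum, against 3.01, 1.33, 1.25 and 3.04 FPKM in colon, for a log2 difference of 1.24 ± 0.27 with adjusted p = 0.0102. The mucosal mast cell proteases Mcpt1 and Mcpt2, close relatives of each other, were also higher. Mcpt1 was at 40.4, 8.99, 68.3, 10.4 and 22.9 FPKM in cecum, against 0.82, 1.49, 2.07 and 0.98 FPKM in colon, for a log2 difference of 3.38 ± 0.51 with adjusted p = 0.00152, and Mcpt2 differed by 3.22 ± 0.51 (adjusted p = 0.00195). Jchain, which joins the IgA of plasma cells, was at 784, 501, 359.5, 228 and 218 FPKM in cecum, against 779, 688, 282 and 602 FPKM in colon, with overlap and a difference of -0.56 ± 0.41 (adjusted p = 0.37). With the replicate number as a block, Jchain was called lower in cecum, at -0.83 ± 0.19 with adjusted p = 0.0248.

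Nerves and matrix of the wall were lower in cecum. Of 29 tested enteric neuron and glia markers, 24 were lower in cecum and 1 was higher, with a median of -1.04. Leaving out any 1 library gave 21 to 25 lower, and leaving out colon replicates 2 and 4 together gave 11. The summed level was 68.1 to 139.8 FPKM in cecum and 181 to 285 FPKM in colon, without overlap. Uchl1, a neuronal ubiquitin hydrolase, was at 10.2, 5.2, 9.13, 5.69 and 5.07 FPKM in cecum, against 26, 19.3, 27.9 and 20.5 FPKM in colon, for a log2 difference of -1.63 ± 0.21 with adjusted p = 0.00061. Nos1, the nitric oxide synthase of inhibitory motor neurons, was at 0.79, 0.36, 0.74, 0.34 and 0.51 FPKM in cecum, against 2.06, 1.52, 2.39 and 2.42 FPKM in colon, for a log2 difference of -1.0 ± 0.14 with adjusted p = 0.00103. Tac1 and Penk, which encode substance P and enkephalin of enteric neurons, differed by -2.48 ± 0.27 (adjusted p = 0.000267) and by -2.14 ± 0.31 (adjusted p = 0.00122). Sox10, the factor of glia and nerve progenitors, differed by -1.08 ± 0.18 (adjusted p = 0.00249). The higher member was Ednrb, the endothelin receptor of neural crest cells that other cells of the wall also use, at 14, 6.95, 11.2, 7.66 and 12.6 FPKM in cecum, against 4.65, 3.12, 3.41 and 4.42 FPKM in colon, for a log2 difference of 1.20 ± 0.20 with adjusted p = 0.00291.

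The interstitial cells of Cajal are the pacemakers of gut muscle. Of 7 tested markers, 5 were lower in cecum and 0 higher, beside the 9.96% and 7.79% of all genes. Kit, the receptor these cells depend on, which mast cells carry too, was at 4.65, 2.66, 4.97, 2.55 and 3.7 FPKM in cecum, against 10.9, 11.2, 15.3 and 18.6 FPKM in colon, for a log2 difference of -1.67 ± 0.21 with adjusted p = 0.000513. Smooth muscle markers were less clear in 8-week CON, with 5 of 29 lower and 0 higher and a median of -0.55. Over all genes 9.96% were lower and 7.79% higher. The lower count of the muscle markers was 10 without cecum replicate 1, 9 without colon replicate 3 and 3 without cecum replicate 2, 4 or 5. It was 2 without colon replicate 2, 4 or 5, and 3 with the replicate number as a block. Myh11, the myosin of smooth muscle, was at 394, 150.2, 347, 255 and 252 FPKM in cecum, against 364, 241, 466 and 388 FPKM in colon, with overlap and a difference of -0.42 ± 0.27 (adjusted p = 0.325). Fhl1, a LIM domain protein of muscle, was at 111, 41.3, 110.3, 54.8 and 62.5 FPKM in cecum, against 178, 209, 231 and 211 FPKM in colon, for a log2 difference of -1.53 ± 0.27 with adjusted p = 0.00352. The summed level of the smooth muscle list was 3529 to 8594 FPKM in cecum and 6176 to 11798 FPKM in colon, with overlap, and the part of muscle content in the nerve and matrix values was not tested.

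Fibroblast and matrix genes had 18 of 28 tested members lower in cecum and 2 higher, beside the 9.96% and 7.79% of all genes. Their median was -0.91. Single libraries left out gave 13 to 22 lower, and colon replicates 2 and 4 left out together gave 6. The higher count was 0 without cecum replicate 2 or 4 or any 1 colon library, and 1 without cecum replicate 1 or 3 and with the replicate number as a block. Nov, a matricellular protein of the CCN family that the annotation calls Ccn3 (chromosome 15, 54745702 to 54754039, GRCm38), was at 0.96, 0.65, 0.69, 0.39 and 0.97 FPKM in cecum, against 79.3, 65.8, 97 and 146 FPKM in colon. Its groups were far apart, for a log2 difference of -5.77 ± 0.21 with adjusted p = 1.15e-07. Thbs4, a thrombospondin of muscle and nerve matrix, was at 0.86, 1.81, 1.78, 1.63 and 0.68 FPKM in cecum, against 17.9, 45.1, 42.8 and 46 FPKM in colon, lowest of its group in colon replicate 2, for a log2 difference of -3.99 ± 0.28 with adjusted p = 2.13e-05. Fbln1, a fibulin of elastic matrix, and Col1a1, the main chain of type I collagen, differed by -2.43 ± 0.26 (adjusted p = 0.000244) and by -1.21 ± 0.19 (adjusted p = 0.0016). Adipoq, the fat cell hormone adiponectin, was at 1.12, 1.92, 1.04, 1.52 and 0.05 FPKM in cecum, against 20.0, 4.4, 5.19 and 4.31 FPKM in colon, for a log2 difference of -1.95 ± 0.42 with adjusted p = 0.0101, and -1.48 ± 0.29 without colon replicate 2. Its call was lost in one fit over 8 gut groups (adjusted p = 0.0649). Of 13 tested adipocyte markers, 4 were lower in cecum and 0 higher, beside the 9.96% and 7.79% of all genes. Without colon replicate 2 the marker counts were 4 and 2, in one fit over 8 gut groups 0 and 0, and with colon replicates 2 and 4 left out 1 and 0. The part of attached fat in other results was not tested.

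Several lists had few called members in 8-week CON. Cell cycle genes had 2 higher and 0 lower of 30, and Mki67, a marker of dividing cells, was at 27.6, 19.7, 17.8, 12.2 and 21.7 FPKM in cecum, against 12.8, 17, 14.6 and 19.1 FPKM in colon, with overlap. Circadian clock genes had 0 higher and 1 lower of 21, interferon response genes 0 higher and 0 lower of 23, sterol synthesis genes 1 higher and 0 lower of 23, junction genes 0 higher and 3 lower of 22 and endothelial markers 0 higher and 2 lower of 15. In this fit no share of called members among the 6 lists exceeded the 17.8% of all genes. Single libraries moved these small counts. Endothelial markers had 5 lower without colon replicate 3 and 0 with colon replicates 2 and 4 left out. One fit over 8 gut groups called 1 higher and 4 lower. Junction genes had 1 lower without colon replicate 5, and 2 higher and 4 lower with the replicate number as a block. Cell cycle genes had 1 higher without cecum replicate 2, 3 or 5 or colon replicate 2 or 3. Clock genes had 0 lower without cecum replicate 2 or 3 or colon replicate 2, 3 or 5, and 3 with the block. Interferon response genes had 1 higher without cecum replicate 1. Sterol synthesis genes had 2 lower without cecum replicate 2 and 1 without cecum replicate 5 or colon replicate 2.

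The same regional comparison was available in 2 sets of libraries that share none with the 8-week CON set. In 18-month CON, limma called 3827 of 14070 genes (27.2%), and in 8-week CRD 3999 of 14044 (28.5%). Of the 2444 genes called in 8-week CON and tested at 18 months, 1862 were called in the same direction there, 76.2% of them and 49.7% of the 18-month calls. Of the 2447 tested in CRD, 2033 were called in the same direction, 83.1% of them and 51.8% of the CRD calls. Across genes, which are not independent replicates, the differences correlated with Pearson's r of 0.893 between 8-week CON and 18-month CON (13784 genes) and 0.93 between 8-week CON and 8-week CRD (13831 genes).

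The leading genes had the same sign in these sets. Slc37a2 differed by 7.47 ± 0.19 at 18 months and 6.56 ± 0.32 in CRD, Muc2 by -3.30 ± 0.17 and -3.32 ± 0.14, Insl5 by -4.17 ± 0.75 and -5.37 ± 0.70 and Hoxb13 by -2.55 ± 1.04 and -4.14 ± 0.91. Hoxb6, with 2.96 in 8-week CON, differed by 1.03 ± 0.53 at 18 months and by 2.70 ± 0.64 in CRD. The goblet list had 13 of 27 members lower in cecum at 18 months and 15 of 27 in CRD, against the 14.8% and 16.9% of all genes called lower there. The neuron and glia list had 25 of 29 and 24 of 28 lower. The B cell list had 24 of 26 and 24 of 26 members higher in cecum, against the 12.4% and 11.6% of all genes. The Hox list had 5 of 30 members higher and 1 lower at 18 months, and 8 of 29 higher and 3 lower in CRD, and its median was 0.37 and 0.39. The fatty acid oxidation list had 6 of 34 higher and 2 lower at 18 months, and 11 of 34 higher and 1 lower in CRD. Smooth muscle markers had 10 of 29 lower at 18 months and 19 of 29 in CRD, with 0 higher in both. Their median was -0.57 and -1.03. Lists with few called members in 8-week CON did not all stay so. Cell cycle genes had 5 of 30 higher and 0 lower at 18 months, and 23 of 30 higher and 0 lower in CRD. Endothelial markers had 1 of 15 higher and 5 lower at 18 months, and 1 higher and 11 lower in CRD. Junction genes had 1 of 22 higher and 6 lower at 18 months, and 0 higher and 5 lower in CRD. Clock, interferon response and sterol synthesis genes had at most 3 called members. Whether the counts of these lists differ between the sets was not tested.

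**Figure D5:**
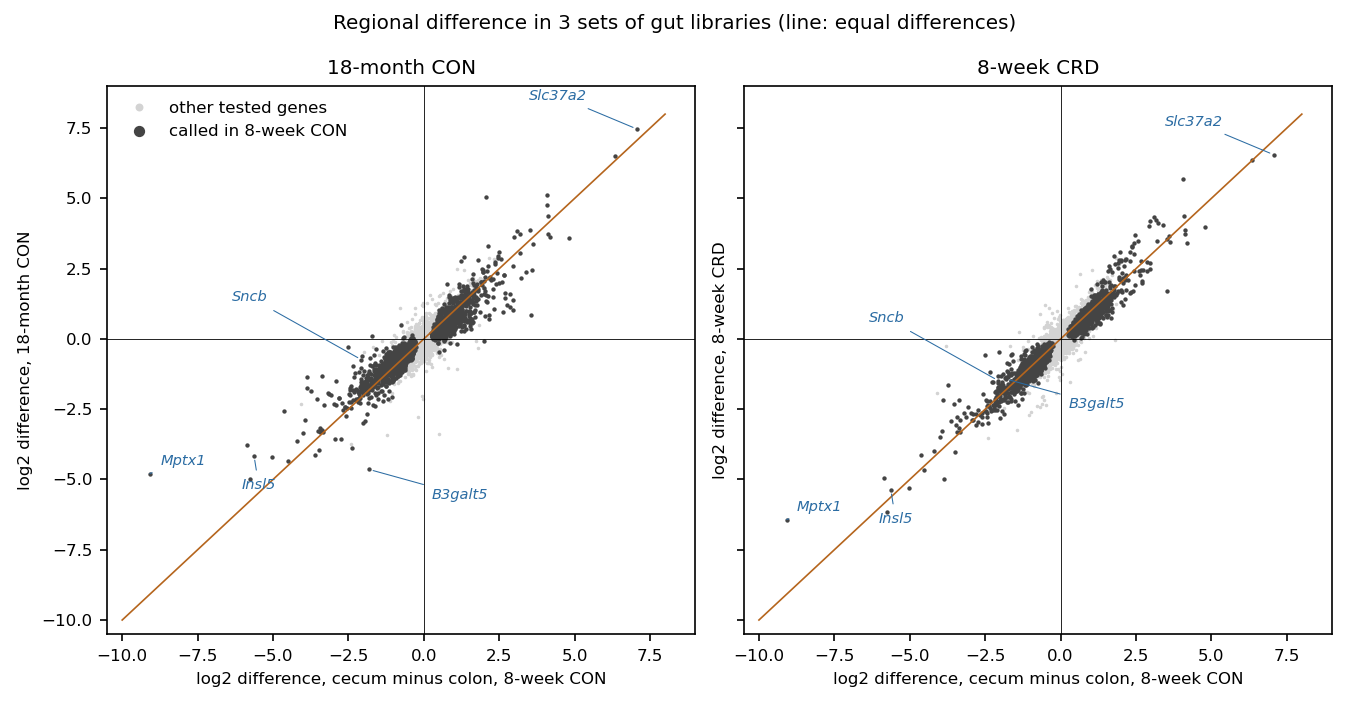
Cecum minus colon difference on the log2(FPKM + 1) scale in 8-week CON (x axis) against that in 18-month CON (left) and 8-week CRD (right), 1 point per gene, with genes called in 8-week CON in dark grey and a line at equal differences. Over the genes called in 8-week CON the slope against the x axis is 0.836 at 18 months and 0.968 in CRD. Mptx1 lies nearer to 0 in both other sets (-4.79 ± 1.80 and -6.43 ± 1.5) than in 8-week CON (-9.08). These genes and Mptx1 were chosen by their 8-week CON values, so smaller differences in the other sets can follow from that choice alone.

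The test of whether the regional difference itself changed with age called 1 of 14020 genes (0.00713%) with limma. An unadjusted p under 0.05 was held by 479, a smaller share than the 0.05 expected if no gene differed. The called gene was Sncb, the presynaptic protein beta-synuclein. At 18 months it was at 0.21, 0.43, 0.30 and 0.39 FPKM in cecum, against 1.7, 1.49, 1.43, 0.57 and 1.09 FPKM in colon. At 8 weeks it was at 0.21, 0.24, 0.17, 0.34 and 0.27 FPKM in cecum, against 5.33, 3.61, 3.91 and 4.18 FPKM in colon. Cecum libraries overlapped between the ages, and every 18-month CON colon library was below every 8-week CON one. The regional difference in CON was -0.74 ± 0.15 at 18 months and -2.07 ± 0.12 at 8 weeks. Their difference was 1.33 ± 0.19 with adjusted p = 0.0291. In 8-week CRD, colon was at 3.61, 5.38, 2.36, 1.86 and 0.68 FPKM, the last within the range of 18-month CON colon. The regional difference in that set was -1.48 ± 0.29. No gene was called with the replicate number as a block, nor without 18-month cecum replicate 1, 2 or 4, 8-week cecum replicate 1, 3 or 4, 18-month colon replicate 3, or 8-week colon replicate 2 or 4.

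The next smallest p-values did not pass. B3galt5, which adds galactose to mucin chains, was at 1.69, 0.82, 4.67 and 3.17 FPKM in 18-month cecum, against 53.5, 29.8, 22, 19.8 and 38.9 FPKM in 8-week cecum. In colon it was at 127, 81.2, 40.0, 60.1 and 139 FPKM at 18 months, against 108, 127, 84.9 and 128 FPKM at 8 weeks. The cecum groups were far apart and the colon groups overlapped, for a difference between the regional differences of -2.83 ± 0.53 with adjusted p = 0.321. Tmem179b, Glycam1 and Gpam had -0.43 ± 0.09, 2.99 ± 0.63 and 1.17 ± 0.25, with adjusted p of 0.466, 0.5 and 0.5. Glycam1, a mucin-like ligand of high endothelial venules, the vessels through which lymphocytes enter lymphoid tissue, was at 25.8, 50.7, 39.4 and 24 FPKM in 18-month cecum and 9.74, 4.62, 3.6, 5.08 and 0 FPKM in 8-week cecum, and at no more than 0.26 FPKM in any CON colon library.

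The test of whether the regional difference differed between 8-week CRD and 8-week CON called 0 of 13988 genes (0%) with limma. Only 100 had an unadjusted p under 0.05, a smaller share than the 0.05 expected if no gene differed. The p-values of this test thus ran high, and 0 calls do not show that the regional differences were equal. The 5 smallest unadjusted p-values were 0.000384 for Samd12, 0.000918 for Tmem255b, 0.0038 for Spa17, 0.00521 for Stk32a and 0.0055 for Rspo1. Their differences between the regional differences were -0.63 ± 0.15, -0.62 ± 0.16, -0.59 ± 0.18, 0.45 ± 0.14 and -0.88 ± 0.28 in that order, each with limma's adjusted p of 1. Samd12, a protein with a SAM domain, was at 2.93, 2.92, 3.04, 2.56 and 3.16 FPKM in CRD cecum and 3.81, 3.83, 3.09, 3.3 and 4.05 FPKM in CRD colon, against 3.2, 3.78, 3.68, 3.53 and 3.79 FPKM in CON cecum and 2.7, 2.01, 2.14 and 3.23 FPKM in CON colon.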

How the data were processed

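Per the labels' protocols, RNA was taken from gut tissue with Trizol, enriched with oligo(dT) and primed with random hexamers. Values are FPKM deposited by the authors in 1 table for both ages, with 2 decimals. The submitters' processing notes name HISAT2, Bowtie2, RSEM, DESeq2 and GRCm38, and their versions are not given in the sources used here. Total counts are not used here, so depth is unknown and the number of libraries limits the precision. Log2(FPKM + 1) was compared with limma 3.58.1 in R 4.3.3 (trend, two-sided, Benjamini-Hochberg over all genes tested, adjusted p under 0.05), after a test on simulated data. The 2 tests of changed regional difference were interaction contrasts over 4 groups each. Libraries with the same replicate number deviated together in all 4 pairs (correlations 0.167 to 0.374, against -0.37 to 0.118 for other pairs), so the number was used as a block in an alternative, in which the unpaired cecum replicate 1 does not contribute. Genes were named as the 15 largest rises and falls among called genes with a group mean of 5 FPKM or more, predicted genes left out, as members of gene lists, or as the 5 smallest p-values of each interaction. The lists and the comparison were chosen with earlier results of these data known. Some genes are not reported here. Positions are from GENCODE M21 on GRCm38 and promoters from RefSeq on GRCm38.p6. Alternatives were other pseudocounts, filters, scalings, priors and fits, and leaving out libraries.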

Additional observations from a re-analysis of the deposited data

Results flagged for a closer look

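Among the genes looked at, 22 of 250 groups of 4 or 5 libraries held 1 library far from the others, where its gap to the nearest library took up most of the group's range, on either side. Chance alone sets 1 library apart in about 5% of groups. In cecum replicate 1 the value was 5.56 FPKM for Grem1. In cecum replicate 2 the value was 25.2 FPKM for Fgfr2. In cecum replicate 3 the values were 3151 FPKM for Reg4, 146 FPKM for Mptx1, 28.7 FPKM for Clps, 5.28 FPKM for Capn13, 10.2 FPKM for Foxa3, 426 FPKM for Muc2 and 4.11 FPKM for Slc1a1. In cecum replicate 5 the values were 36 FPKM for Gal3st2c, 0 FPKM for Ccl19, 5.12 FPKM for Cck and 10.4 FPKM for Ubd. In colon replicate 2 the values were 19.1 FPKM for Insl5, 17.9 FPKM for Thbs4, 29.9 FPKM for Slc10a2, 64.3 FPKM for Adh1, 20.0 FPKM for Adipoq and 1.48 FPKM for Slc15a1. In colon replicate 5 the values were 0.58 FPKM for Gal3st2c, 17.1 FPKM for Mpp6 and 15.3 FPKM for Hoxa13. The regional difference of Sncb differed between ages by 1.33 (18-month CON minus 8-week CON, adjusted p = 0.0291 by limma). The ages were compared by a test of that difference itself.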

How the results depend on the processing

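Over pseudocounts of 0.1 and 0.5, no filter or a mean of at least 2 FPKM, both scalings, no trend, a robust prior and the replicate block, the number of genes called was 1903 to 2855. One fit over 8 gut groups called 3531, with 1788 higher in cecum. Leaving out colon replicates 2 and 4 together, chosen after seeing the data, called 1164, with 517 higher and 647 lower, in a fit with 2 fewer libraries. Leaving out 1 library gave 1763 to 2668 called, 671 (without colon replicate 3) to 1153 higher and 982 to 1726 lower. The age test called 0 genes with pseudocounts of 0.1 and 0.5, with a mean of at least 2 FPKM, with equal sums of FPKM and with the replicate block, 11 with no filter, and 0 to 3 when 1 library was left out; the cause was not tested. The schedule test called 0 under every alternative run. The 125 genes looked at had 2496 values over the alternative fits, each fit being shared by these genes. No called gene reversed its direction, and 72 of these values lost a call. Cdx1, not called, changed sign with the block and without some single libraries, between -0.07 and 0.05. With colon replicates 2 and 4 left out, Clca1, Cd3e, Gal3st2 and Dclk1 lost their calls too, besides genes that single libraries decided (Reg4, Ccl19, Ang4, Itln1, Cdx2, Ms4a1 and Rgs13). In all fits 26 of the 30 genes with the largest differences kept their calls, the exceptions being Reg4, Ccl19, Ang4 and Itln1. The replicate block changed no call of the 125 genes except Nts and Jchain, and called 2699 genes. Depth is unknown, so no floor can be given for values near 0.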

Other observations

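Further lists had at most 10 called members each. Markers of M cells and follicle epithelium, which pass antigen to the lymphoid tissue below, had 5 of 14 tested members higher and 0 lower in cecum (3 to 6 and 0 when single libraries were left out). Macrophage and myeloid markers had 5 of 22 tested members higher and 0 lower in cecum (3 to 6 and 0 to 2 when single libraries were left out), and plasma cell and IgA genes had 1 of 12 tested members higher and 2 lower in cecum (1 to 2 and 1 to 3 when single libraries were left out). Crypt base and stem cell genes had 3 of 21 tested members higher and 7 lower in cecum (1 to 3 and 5 to 8 when single libraries were left out). Retinoid and vitamin genes had 2 of 20 tested members higher and 2 lower in cecum (1 to 4 and 2 when single libraries were left out), and keratins and epithelial structure genes had 1 of 21 tested members higher and 6 lower in cecum (1 to 2 and 4 to 6 when single libraries were left out). Over all genes, 7.79% were called higher in cecum and 9.96% lower.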
